A study of Mus musculus with 48 samples.

Results

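The neurotrophins BDNF and NT-3 and the receptors that bind them were followed at the RNA level in the hippocampus of mice lacking the cannabinoid receptor CB1 in one class of neurons. The genes are *Bdnf* and *Ntf3*, which encode the ligands, *Ntrk2* (TrkB) and *Ntrk3* (TrkC), which encode their receptor tyrosine kinases, *Ngfr*, which encodes the p75 receptor, and *Sort1*, which encodes sortilin. They were chosen by symbol, and all 6 were found among the 24421 genes counted. RNA-sequencing was done on tissue of the Cornus Ammonis (CA) of 48 male mice, labelled as 8 weeks old, from which the dentate gyrus had been removed. In the Glu-CB1 line (nex-cre x CB1f/f), Cre recombinase under *Nex* regulatory elements removes the floxed CB1 gene from glutamatergic neurons. In the GABA-CB1 line (dlx5/6-cre x CB1f/f), Cre under *Dlx5/6* elements removes it from GABAergic neurons. Each conditional knockout (KO) group has CB1-WT animals of the same line as its control, and the tissue holds all CA cell types, so that CB1 remains in the cells that the Cre does not reach. Mice were taken either from the home cage (basal state) or after 5 min in an open field arena, a new environment used to raise neuronal activity, with the tissue isolated an hour later. The groups held 5 Glu-CB1-WT and 7 Glu-CB1-KO mice in each state, 6 GABA-CB1-WT and 6 GABA-CB1-KO mice of the basal state, and 7 GABA-CB1-WT and 5 GABA-CB1-KO mice after the open field. The study's text gives these last sizes in the opposite order, and the labels, by which *Cnr1* also separated the libraries, were followed.

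As background, BDNF is made mainly by excitatory neurons in the forebrain, is released with neuronal activity, and through TrkB strengthens synapses. NT-3 acts chiefly through TrkC. The proforms of both bind p75 together with sortilin, and sortilin also steers BDNF into the secretory pathway. *Bdnf* is transcribed from several promoters, and calcium entering an active neuron acts on some of them through CREB and NPAS4. CB1 sits on axon terminals and lowers transmitter release, of glutamate or of GABA according to the neuron that carries it.

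The reads assigned to genes ran from 25892654 to 34091080 over the libraries. *Cnr1*, the gene for CB1, was lower in KO than in CB1-WT mice in all 4 comparisons, with no overlap between libraries: 204–249 against 330–412 CPM (TMM-scaled read counts relative to library size) in the Glu-CB1 line and 100–158 against 311–394 CPM in the GABA-CB1 line. Dentate granule cell markers were not absent. All 7 had counts, and they summed to 138–367 CPM. In 3 libraries the 6 choroid plexus markers summed to more than in the others, up to 4042 CPM against a median of 65.1 CPM, and these libraries are 1 Glu-CB1-KO basal, 1 GABA-CB1-WT basal and 1 GABA-CB1-KO open field mouse. The first principal component of all libraries (17.5% of the variance) followed *Xkr4* (r = 0.97, 48 libraries), and 14 libraries spread over all 8 groups were low in that gene. In bulk tissue, fewer cells of a type and less RNA per cell cannot be told apart.

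*Bdnf* lies on chromosome 2 (mm10, 109674700–109727043, plus strand), and its counts sum over all its promoters and exons. Since activity acts on *Bdnf* through CREB, the 7 RefSeq promoter windows of *Bdnf* (GRCm38.p6, the same coordinates as mm10) were searched on both strands for the CRE-like octamer TCACGTCA and for the full CRE TGACGTCA. Window 3 holds the octamer 31–38 bases before its annotated start at 109692436. The stretch around it, at chr2:109692387-109692416 on the plus strand, is shown 5′ to 3′ with the octamer in capitals.

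Bdnf window 3: catatgacagcTCACGTCAaggcagcgtgg

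Of 32817 promoter windows of the same length, 0.442% hold this octamer and 1.79% the full CRE. The octamer contains the shorter CRE half-site CGTCA, which 20.8% of windows hold. No other *Bdnf* window holds either octamer, which says only that these letters are not in those windows. Windows were at hand for 4 of the 6 genes, and neither octamer is in those of *Ntf3*, *Ntrk2* and *Ngfr*. Gene counts cannot assign the values below to one promoter.

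The 6 genes covered a wide range of levels. The receptor genes lie on chromosome 13 (*Ntrk2*, 58806569–59133970, plus strand), chromosome 7 (*Ntrk3*, 78192114–78577838, minus strand) and chromosome 11 (*Ngfr*, 95568821–95587698, minus strand), and *Sort1* on chromosome 3 (108284064–108361519, plus strand). Per kilobase of exon, the scale on which genes can be compared, the medians over 48 libraries were 143.6 CPM for *Sort1*, 49.0 for *Ntrk2*, 24.9 for *Ntrk3*, 7.66 for *Bdnf*, 3.05 for *Ntf3* and 0.421 for *Ngfr*. Sortilin RNA thus stood above 98.1% of all genes tested per kilobase and *Ngfr* above 10.7%. The receptor kinases and sortilin were also the steadiest: the SD within groups was 0.063 for *Ntrk2*, 0.090 for *Ntrk3* and 0.054 for *Sort1* on the log2 scale, against 0.17 for *Bdnf*, 0.27 for *Ntf3* and 0.26 for *Ngfr*. *Ngfr* rested on only 28–71 reads per library, against 997–2120 for *Bdnf*. *Ntrk2* counts pool the full-length and the truncated forms of TrkB, which differ in having the kinase domain and which these counts cannot separate.

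**Figure D1:**
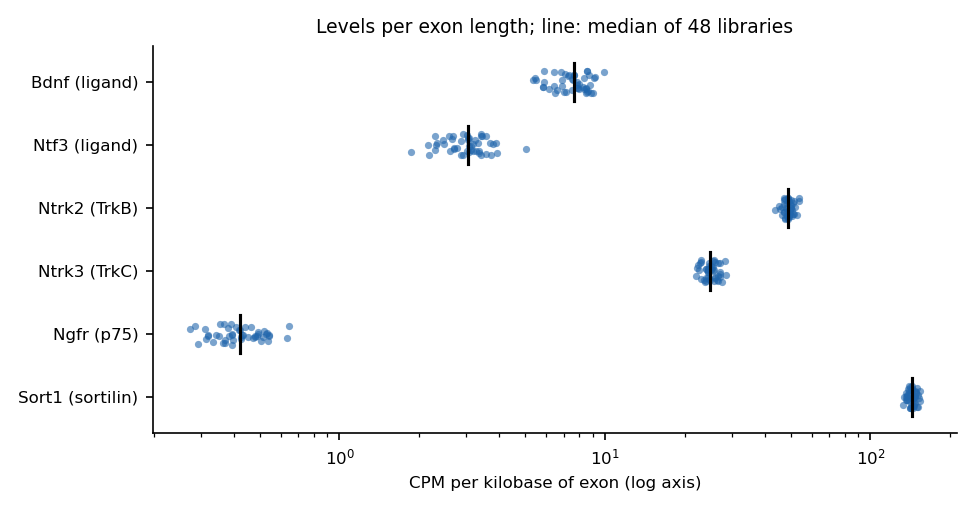
Levels of the 6 genes per kilobase of exon, in CPM per kilobase on a log axis. Each point is 1 of 48 libraries and each line the median, and the medians run from 0.421 for *Ngfr* to 143.6 for *Sort1* without overlap between neighbouring genes.

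*Ntf5* (NT-4, the other TrkB ligand) had 1–13 reads per library and did not pass the filter on low counts.

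Whether the loss of CB1 in GABAergic neurons goes with another *Bdnf* level was examined first. In the basal state, *Bdnf* was 43.1–59.5 CPM in the 6 GABA-CB1-WT mice (median 49.98) and 35.9–52.8 CPM in the 6 GABA-CB1-KO mice (median 39.4). In 5 of the 6 KO libraries it lay under the lowest CB1-WT library, and the sixth, replicate 5, lay within the CB1-WT range. After the open field, it was 46.4–61.8 CPM in the 7 GABA-CB1-WT mice (median 55.5), and 49.1, 36.5, 39.7, 39.3 and 46.1 CPM in the 5 GABA-CB1-KO mice. Of these, 4 lay under the lowest CB1-WT library.

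The fitted differences of *Bdnf* in the GABA-CB1 line were −0.32 ± 0.10 (SE, log2) for basal mice, or −19.9% (95% confidence interval −30.8 to −7.23%), and −0.37 ± 0.08 after the open field, or −22.4% (−31.2 to −12.6%). Their p-values (edgeR's quasi-likelihood test) were 0.0058 and 0.00041, and after adjustment over all genes tested 0.355 and 0.168, so that neither passed the threshold of 0.05 (number 246 and number 37 in the order of p). Few genes passed it at all: 0.245% of 15082 genes for basal mice and 0.0199% of 15097 genes after the open field. The last numbers of the sample titles, whose meaning the labels do not give, were grouped into ranges. Among the basal mice of this line, a middle range held KO mice only. The basal Glu-CB1 line also had a range with KO mice only. Genotype and range are thus partly confounded in the basal state of both lines. With the range as a covariate, *Bdnf* was not called in the basal GABA-CB1 line either. DESeq2 called 1.43% of 9837 genes after the open field, *Bdnf* among them (adjusted p = 0.0052), and in the basal state gave *Bdnf* an adjusted p of 0.141.

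With both states of the line in one fit, with state as a covariate, *Bdnf* was lower in GABA-CB1-KO mice by 0.34 ± 0.07 on the log2 scale over 24 libraries, a fold of 0.788, and passed the threshold (edgeR, adjusted p = 0.0131). This fit was added after the values were seen, and it uses the mice of both comparisons above. It called 55 of 15374 genes (0.358%), and *Bdnf* stood at number 26 by p. Over both states, 8 of 11 KO libraries lay under the lowest of 13 CB1-WT libraries and 10 of 11 under the CB1-WT median.

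Marker levels of neurons and oligodendrocytes were set beside this result. CA3 pyramidal cell markers (5 genes) summed to 266–328 CPM in CB1-WT and 265–292 CPM in KO mice in the basal GABA-CB1 line, and to 262–309 and 255–351 CPM after the open field. Of these 5, *Bok* was called lower in the basal KO mice. CA1 pyramidal cell markers (5 genes) overlapped likewise. Dentate granule cell markers summed to 151–367 CPM in CB1-WT and 171–224 CPM in KO mice in the basal line, and 6 of 7 were lower in KO (median −0.19 on the log2 scale), against 2 of 7 after the open field. All 8 oligodendrocyte markers were higher in basal KO mice (median 0.15), against 5 of 8 after the open field. Interneuron markers (7 genes, all with counts) summed to 772–872 and 764–807 CPM in the basal state, but after the open field to 809–861 CPM in CB1-WT and 738–783 CPM in KO mice, without overlap. CA2 pyramidal cell markers were higher in KO mice for 4 of 6 in the basal state (median 0.02) and 5 of 6 after the open field (median 0.20). Over 48 libraries *Bdnf* had r = 0.43 with the CA3, −0.435 with the CA1 and −0.02 with the CA2 marker sum. For interneuron, dentate granule cell and oligodendrocyte markers r was 0.35, 0.08 and −0.01. The part of these markers in the *Bdnf* result was not tested. Without the libraries high in choroid plexus markers the *Bdnf* difference was −0.28 ± 0.10 for basal mice and −0.34 ± 0.09 for open field mice, and without those low in *Xkr4* it was −0.36 ± 0.11 and −0.36 ± 0.09, on the log2 scale.

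**Figure D2:**
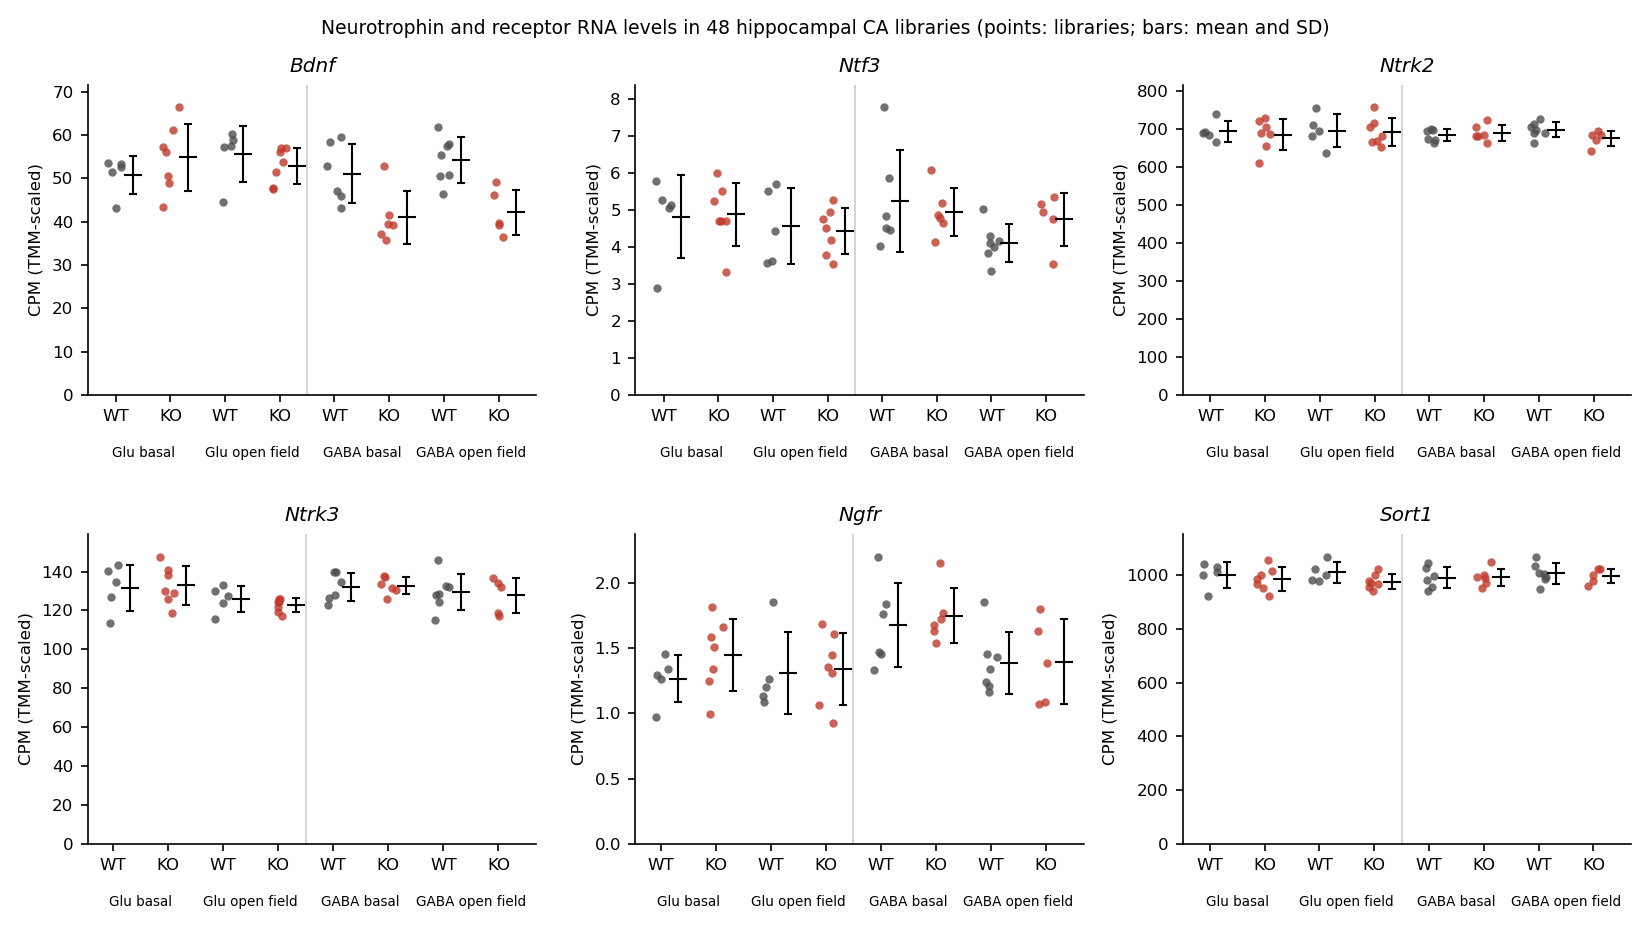
CPM (TMM-scaled, linear axes from 0) of the 6 genes in each library (points, grey for CB1-WT, red for KO) by line and state, with the group mean and SD beside them. For *Bdnf* both GABA-CB1-KO groups (means 40.99 and 42.1 CPM) sit under the other 6 groups (50.8–55.7 CPM), while *Ntrk2* and *Sort1* lie at one height throughout.

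With the loss of CB1 in glutamatergic neurons, no *Bdnf* difference passed the threshold. In the basal state *Bdnf* was 52.7, 53.2, 43.2, 51.5 and 53.5 CPM in the Glu-CB1-WT mice and 43.4–66.4 CPM (median 56.0) in the 7 Glu-CB1-KO mice. After the open field it was 57.2, 58.8, 60.3, 57.5 and 44.5 CPM in the Glu-CB1-WT mice and 47.6–57.0 CPM (median 53.8) in the KO mice. The groups overlapped in both states, although after the open field all 7 KO libraries lay under the CB1-WT median. The differences were 0.11 ± 0.09 (interval −0.08 to 0.31) and −0.07 ± 0.07 (−0.23 to 0.08) on the log2 scale, with edgeR adjusted p-values of 0.999 and 0.998, where 0.0198% and 0.272% of all genes were called. Without Glu-CB1-WT replicate 5, the low library, the open field difference was −0.14 ± 0.06 (adjusted p = 0.676), and without basal Glu-CB1-WT replicate 3 or Glu-CB1-KO replicate 5 the basal one was 0.06 ± 0.09 or 0.06 ± 0.08. Over both states the difference was 0.02 (−0.11 to 0.15), in a fit that called 0.274% of genes. Basal KO replicates 4 and 5 (57.3 and 66.4 CPM) were the only basal mice of this line in their range of title numbers. Genotype and range are thus partly confounded in its basal state.

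The difference between the lines was itself tested. The KO effect on *Bdnf* in the Glu-CB1 line exceeded that in the GABA-CB1 line by 0.43 ± 0.14 for basal mice and by 0.29 ± 0.11 after the open field, on the log2 scale. The edgeR adjusted p-values were 0.340 and 0.320, with 0.279% and 0.568% of all genes called. In the basal state, genotype and range of title numbers are partly confounded in both lines. Over both states, in one fit of 48 libraries that was also added later, the gap was 0.36 ± 0.10 (adjusted p = 0.0549), in a comparison with 0.732% of genes called. A difference of the *Bdnf* response between the lines thus did not pass the threshold in any of the 3 tests.

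In the order of the 8 group means of *Bdnf*, from 55.7 CPM in Glu-CB1-WT mice after the open field down to 40.99 CPM in basal GABA-CB1-KO mice, every group overlapped its neighbour. The largest step between neighbours was that from Glu-CB1-WT basal (50.8 ± 4.33 CPM, SD, n = 5) to GABA-CB1-KO open field (42.1 ± 5.24 CPM, n = 5).

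For the other ligand, *Ntf3* (chromosome 6, 126101412–126166744, minus strand), no genotype difference passed the threshold. Its log2 differences ranged from −0.08 (GABA-CB1, basal) to 0.21 (GABA-CB1, open field, interval −0.03 to 0.45, edgeR adjusted p = 0.437). The receptor kinases and sortilin gave narrow intervals. For *Ntrk2* the KO differences in the 4 comparisons lay between −0.05 and 0.01 on the log2 scale, and the intervals reached no further than −0.12 and 0.09. For *Sort1* they lay between −0.05 and 0.00, within intervals from −0.12 to 0.07. After the open field, *Sort1* in 5 of 7 Glu-CB1-KO libraries lay under the lowest CB1-WT library (−0.05 ± 0.03, edgeR adjusted p = 0.917). For *Ntrk3* the differences lay between −0.04 and 0.01, within −0.14 to 0.15. *Ngfr*, with few reads, left room for more, with a largest value of 0.21 (−0.12 to 0.53) in the basal Glu-CB1 line.

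**Figure D3:**
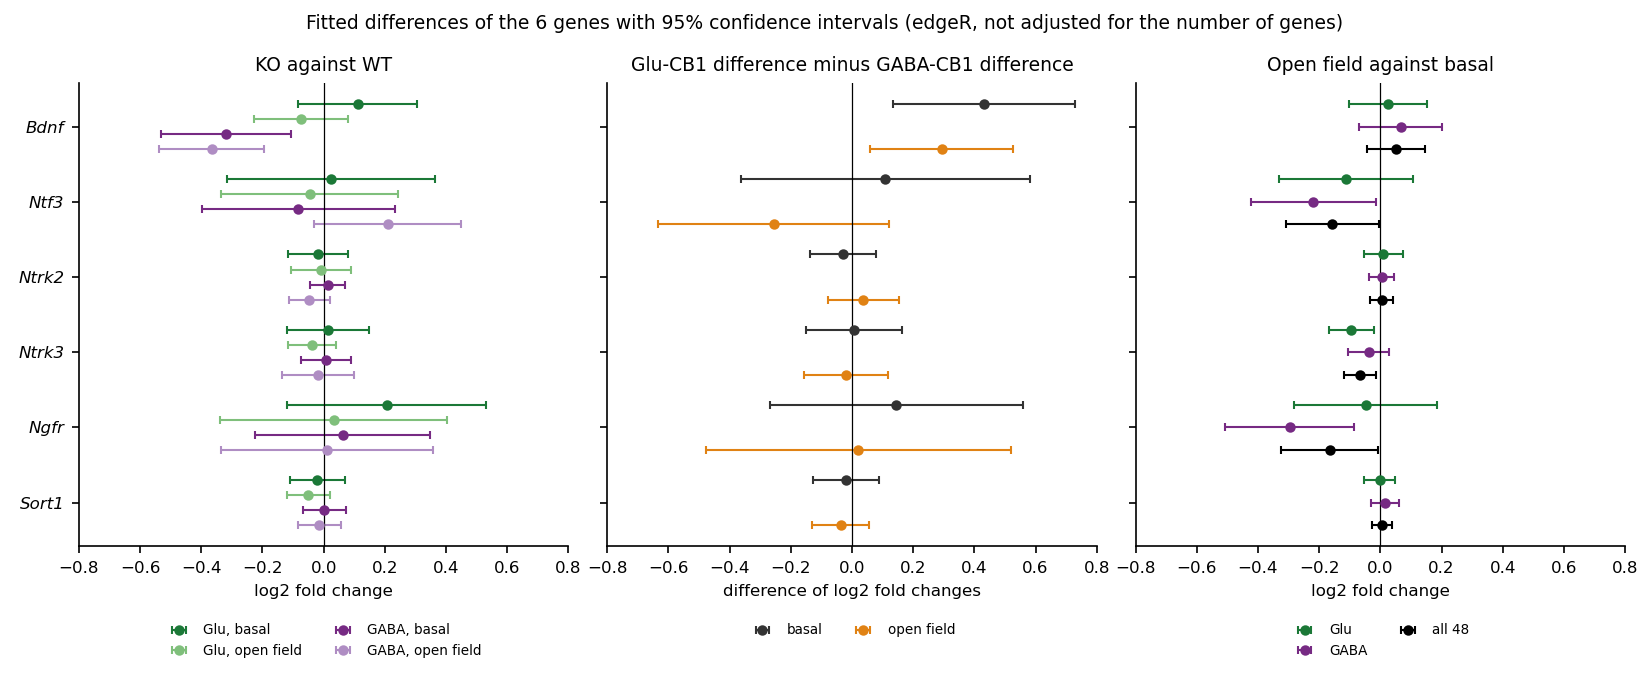
Fitted log2 differences (points) with 95% confidence intervals (bars) for KO against CB1-WT, for the gap between the lines and for open field against basal, from edgeR without adjustment for the number of genes. The *Bdnf* intervals of the GABA-CB1 line lie under 0, from −0.53 to −0.11 for basal mice and from −0.54 to −0.19 after the open field, while those of *Ntrk2*, *Ntrk3* and *Sort1* all span 0 for genotype.

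None of the 6 genes was called in any of the 4 genotype comparisons by edgeR. *Bdnf* in the GABA-CB1 line accounts for both tests with an unadjusted p under 0.05 among the 24, where the share of all genes at such a p was 3.57% and 6.97% in the Glu-CB1 line and 8.16% and 13.2% in the GABA-CB1 line (basal and open field). DESeq2 gave the same pair and called 1 of them.

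The response to the open field was then compared between states. No *Bdnf* difference between the states passed the threshold. Over all 48 libraries, open field mice stood 0.05 ± 0.05 above basal mice on the log2 scale (interval −0.04 to 0.15), where 8.63% of all genes were called. In the lines the value was 0.03 (−0.10 to 0.15) for Glu-CB1 and 0.07 (−0.07 to 0.20) for GABA-CB1. By genotype it was 0.13 ± 0.09 in Glu-CB1-WT, −0.05 ± 0.08 in Glu-CB1-KO, 0.09 ± 0.09 in GABA-CB1-WT and 0.04 ± 0.10 in GABA-CB1-KO mice. Whether genotype changed the response was tested in each line, and neither *Bdnf* (−0.18 ± 0.12 and −0.05 ± 0.14, edgeR adjusted p = 1.00 and 0.892) nor any other gene passed (0% called in both lines, with 379 and 2237 genes at an unadjusted p under 0.05). The same held for the response between lines, with 0% of genes called by edgeR, 327 at an unadjusted p under 0.05 and *Bdnf* at −0.02 ± 0.10. DESeq2 called 0 genes for the Glu-CB1 genotype by state test and for the response between lines, and 62 for GABA-CB1.

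Genes that neurons switch on with activity did rise in the same libraries. *Fos*, a transcription factor of the early response, rose from 3.19 ± 1.62 to 12.3 ± 5.26 CPM (SD, n = 24 and 24), by 1.93 ± 0.17 on the log2 scale (edgeR adjusted p = 5.81e-11). *Egr1*, another such factor, rose by 0.76 ± 0.07 (adjusted p = 2.46e-10). *Arc*, which acts at active synapses and is a target of BDNF signalling, rose by 0.68 ± 0.11 (adjusted p = 5.99e-05), but the study chose its mice partly by *Arc* measured in the tissue. The rises of the other activity-induced genes may thus also depend partly on that choice. *Npas4*, which drives activity-dependent *Bdnf* transcription, rose by 0.29 ± 0.09 (adjusted p = 0.0439). Unlike the other 3, it was called in neither line by itself. Its values there were 0.38 ± 0.13 for Glu-CB1 (edgeR adjusted p = 0.158) and 0.18 ± 0.11 for GABA-CB1 (adjusted p = 0.577).

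**Figure D4:**
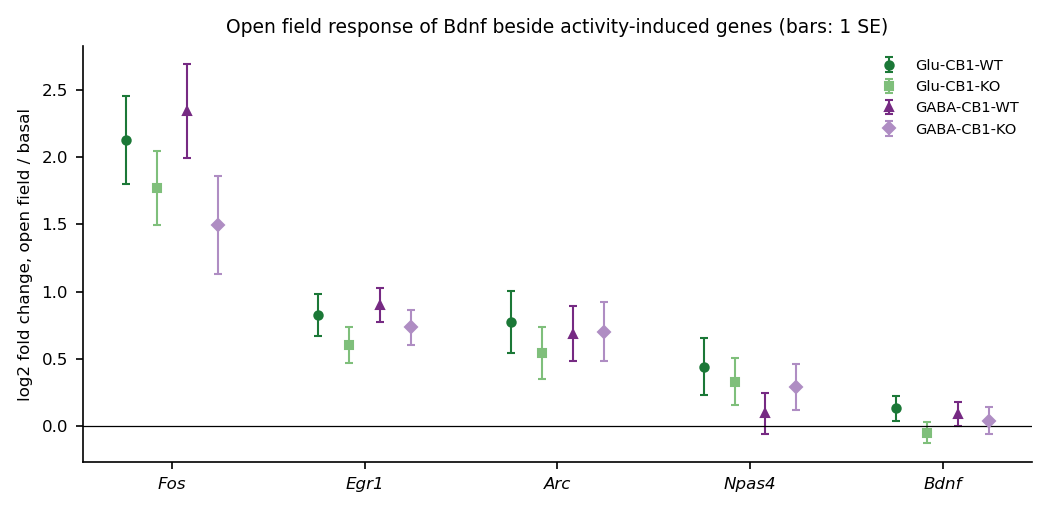
Log2 fold change of open field over basal mice (points, bars 1 SE) for 4 activity-induced genes and *Bdnf*, in each genotype of each line. The *Fos* values run from 1.49 to 2.34 and those of *Bdnf* from −0.05 to 0.13.

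Among the receptors, small decreases after the open field did not pass the threshold. *Ntrk3* stood 0.07 ± 0.03 lower on the log2 scale over all libraries (edgeR adjusted p = 0.107) (interval −0.12 to −0.01). In the Glu-CB1 line the value was −0.09 ± 0.04 (adjusted p = 0.194). There *Ntrk3* was 126.8, 134.7, 113.7, 143.2 and 140.2 CPM in basal CB1-WT mice and 129.8, 132.9, 123.7, 127.5 and 115.4 CPM after the open field. In Glu-CB1-KO mice it was 118.6–147.7 CPM (median 129.9) and 116.9–126.1 CPM (median 124.4). The states overlapped in both genotypes, and all 7 open field KO libraries lay under the median of the basal ones. Without the 14 libraries low in *Xkr4* the decrease was larger and was called, in the Glu-CB1 line (−0.15 ± 0.03, adjusted p = 0.0186) and over all lines (−0.09 ± 0.02, adjusted p = 0.0189). *Ntrk3* moved with the first principal component (r = 0.62 over 48 libraries). With that component as a covariate the difference over all libraries was −0.06 ± 0.02 (edgeR adjusted p = 0.0388), in a fit that called 1784 genes. The libraries low in *Xkr4* include 3 Glu-CB1-KO basal mice and 2 of each other Glu-CB1 group.

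*Ngfr* stood lower after the open field in the GABA-CB1 line, at −0.30 ± 0.10 on the log2 scale (edgeR adjusted p = 0.192), in a comparison with 0.963% of genes called. It was 1.33–2.20 CPM in basal and 1.16–1.85 CPM in open field GABA-CB1-WT mice (medians 1.61 and 1.34). In basal GABA-CB1-KO mice it was 1.54–2.15 CPM (median 1.70), and in those of the open field 1.07, 1.38, 1.09, 1.63 and 1.80 CPM. The states overlapped in both genotypes. In the Glu-CB1 line the value was −0.05 ± 0.11, where 1.8% of genes were called, and the difference between lines was 0.27 ± 0.16 (edgeR adjusted p = 1.00). The markers of basal forebrain cholinergic cells, which carry p75, summed to 0.77–2.26 CPM with 1 of 5 over 1 CPM.

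*Ntf3* also stood lower after the open field, by 0.16 ± 0.08 on the log2 scale over all libraries (edgeR adjusted p = 0.214), with the largest value in GABA-CB1-WT mice (−0.35 ± 0.13, adjusted p = 0.266). There it was 4.03–7.78 CPM in the basal state (median 4.68) and 3.36–5.03 CPM after the open field (median 4.11). Without GABA-CB1-WT basal replicate 3, the highest library, the GABA-CB1-WT value was −0.21 ± 0.11. Dentate granule cell markers moved with *Ntf3* across libraries (r = 0.74, n = 48, and r = 0.66 without the 2 libraries farthest from the median). Their summed level was 151–367 CPM in the basal and 154–250 CPM in the open field GABA-CB1-WT mice. With that sum as a covariate the GABA-CB1-WT value was −0.21 ± 0.10 and that over all libraries −0.13 ± 0.05.

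*Ntrk2* and *Sort1* gave 0.00 ± 0.02 and 0.01 ± 0.02 on the log2 scale over all libraries, with intervals of −2.2 to 2.9% and −1.8 to 2.8%. In all 48 libraries together, 3 of the 6 genes (*Ntf3*, *Ntrk3*, *Ngfr*) had an unadjusted p under 0.05, as did 21.5% of all genes, and 0 were called by edgeR or DESeq2, and the median of the 6 was −0.0305 on the log2 scale against −0.0041 for all genes. Within single groups, 0.0261% of genes were called in Glu-CB1-WT, 0.306% in Glu-CB1-KO, 0.202% in GABA-CB1-WT and 0.0911% in GABA-CB1-KO mice, and 0 of the 6 in each.

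Around the ligands and receptors, 75 genes of the pathway were listed, of which 71 could be tested. The list was made with earlier results of these data known. The shares of it called below are a description and no test of the pathway. With genotype, 2 of them (2.82%) were called in the basal GABA-CB1 line, where 0.245% of all genes were called: *Npas4* fell and *Rps6ka5*, a kinase (MSK1) that phosphorylates CREB downstream of TrkB, rose. *Npas4* was 8.52–10.9 CPM in CB1-WT and 6.55–8.02 CPM in KO mice (medians 10.6 and 7.25), without overlap, a difference of −0.49 ± 0.07 on the log2 scale (edgeR adjusted p = 0.0060). *Rps6ka5* was 24.5–30.2 CPM in CB1-WT and 31.1–32.9 CPM in KO mice, again without overlap (0.25 ± 0.05, adjusted p = 0.0390). After the open field *Npas4* was at −0.29 ± 0.20 (adjusted p = 0.535) and *Rps6ka5* at 0.0035 ± 0.08 (adjusted p = 0.990), both on the log2 scale, and the ranges overlapped. None of the 71 was called in the other 3 genotype comparisons by edgeR.

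*Pcsk5*, a convertase that can process proneurotrophins, was the 1 of 71 called for a KO effect that differed between lines (1.41%, where 0.568% of all genes were called). After the open field it was 14.7–18.7 CPM in Glu-CB1-KO against 11.8–14.02 CPM in CB1-WT mice, and 10.5–14.3 CPM in GABA-CB1-KO against 12.1–18.8 CPM in CB1-WT mice (gap 0.54 ± 0.12 on the log2 scale, edgeR adjusted p = 0.0302). For basal mice the gap was 0.30 ± 0.13 (adjusted p = 0.507).

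After the open field, over all 48 libraries, 8 of the 71 rose and 2 fell, or 14.1%, where 8.63% of all genes were called. The 71 include genes listed because activity raises them, and the mice were chosen partly by *Arc*. The excess over all genes is thus no test of the pathway. All 6 activity-induced partners and targets had positive values and 3 were called (*Fos*, *Egr1*, *Arc*). Of 10 regulators of *Bdnf* transcription, *Npas4* and *Bhlhe40* rose and *Rest*, a repressor of neuronal genes, and *Mef2c*, an activity-dependent factor, fell (−0.19 ± 0.05 and −0.11 ± 0.04 on the log2 scale). Of the 9 tested genes for processing and release, *Plat*, the plasminogen activator tPA that starts the cleavage of proBDNF, rose from 35.9 ± 2.66 to 40.5 ± 2.49 CPM (0.18 ± 0.03, adjusted p = 3.66e-05). Among 33 adaptors and kinases of Trk signalling 1 was called (*Ptpn11*, 0.04 ± 0.01), and among 11 sortilin relatives and p75 partners 1 (*Traf6*, 0.07 ± 0.02). The median of the Trk adaptors and kinases was 0.0041 on the log2 scale, against −0.0041 for all genes.

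The 3 genes whose log2 CPM followed each member most closely over 48 libraries were looked up among 15569 others. They share library, depth and composition with the member and are given as a description. *Bdnf* was followed by *Nptx2* (r = 0.81), which encodes a secreted neuronal pentraxin of excitatory synapses, *Ptgs2* (r = 0.78), the inducible cyclooxygenase COX-2, and *Ostf1* (r = 0.78). Within the groups the *Bdnf*–*Nptx2* correlation was 0.74, and without the 2 libraries farthest from the median of *Nptx2* it was 0.77. In the basal GABA-CB1 line *Ptgs2* was 45.4–59.1 CPM in CB1-WT and 28.01–34.2 CPM in KO mice (−0.67 ± 0.07 on the log2 scale, edgeR adjusted p = 0.00067). *Ostf1* was also lower there (−0.40 ± 0.06, adjusted p = 0.0128), and *Nptx2* stood at −0.44 ± 0.10 (adjusted p = 0.113). Since these genes were picked for moving with *Bdnf* over the same libraries, their values are not independent of it. After the open field none of the 3 was called in that line (−0.32 ± 0.15, −0.27 ± 0.06 and −0.13 ± 0.15 for *Ptgs2*, *Ostf1* and *Nptx2*).

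**Figure D5:**
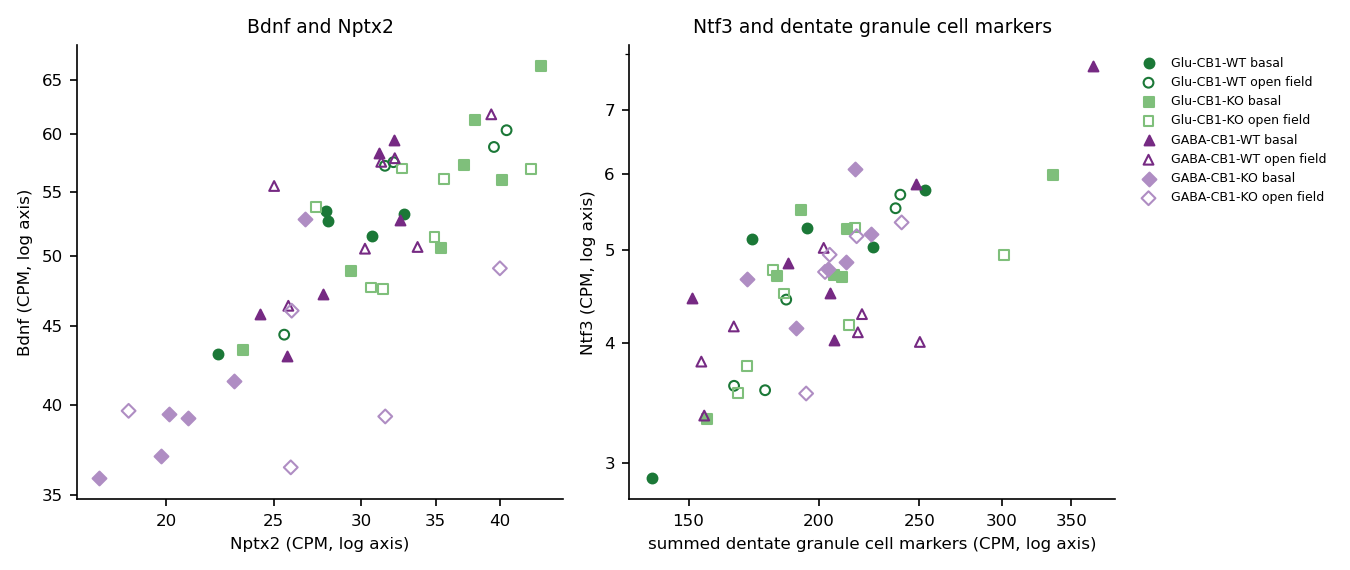
*Bdnf* against *Nptx2* and *Ntf3* against the sum of 7 dentate granule cell markers, both in CPM on log axes, 1 point per library (filled for basal, open for open field). *Bdnf* rises with *Nptx2* (r = 0.81) and *Ntf3* with the marker sum (r = 0.74) over 48 libraries, and the GABA-CB1-KO basal libraries lie at the low end of the left panel with 1 exception.

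*Ntf3* was followed by *Pdyn* (r = 0.82), the dynorphin precursor that dentate granule cells make in quantity, *Btbd3* (r = 0.80) and *Fam160a1* (r = 0.79). *Ntrk2* was followed by *Sel1l*, *Sod2* and *Stt3a* (r = 0.80, 0.79 and 0.77), *Ntrk3* by *Grik2*, *Dgke* and *Rasa1* (0.75, 0.74 and 0.74), and *Sort1* by *Gnaq*, *Atrn* and *Frrs1l* (0.84, 0.83 and 0.80). *Ntrk2*, *Ntrk3* and *Sort1* all rose with the first principal component (r = 0.59, 0.62 and 0.60), *Bdnf* little (r = 0.23). For *Ngfr* the correlations were lower, at 0.56 for *4930581F22Rik* and 0.55 for *Camk2g*. Among the 6 themselves, *Ntrk2* and *Sort1* went together most (r = 0.57, and 0.586 within groups). *Bdnf* and *Ntrk3* had r = 0.287 over all libraries and 0.577 within groups, and *Bdnf* and its receptor *Ntrk2* 0.251 and 0.244.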

How the data were processed

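Total RNA of 48 CA samples, each from 1 mouse, was made into cDNA with the NuGEN Ovation RNA-seq system and sequenced as single reads. The authors deposited raw counts per gene, which they made by trimming with bbduk, aligning to mm10 with STAR 2.6.0a and counting with featureCounts 1.6.2 with a strand setting. Whether the libraries keep strand is not given in the sources used here, and antisense genes overlap *Bdnf* and *Sort1*. The study chose mice by dissection purity, behaviour and *Arc* induction. Per the labels, the samples form 8 groups by line, genotype and state.

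Genes were filtered with filterByExpr by group, scaled by TMM and tested with edgeR 4.0.16 (R 4.3.3, limma 3.58.1) by the quasi-likelihood F test, with Benjamini-Hochberg adjustment over all genes tested and a threshold of 0.05. The SE is the absolute log2 fold change divided by the root of F. Levels are CPM computed from the counts, and correlations use log2 CPM with a prior count of 2. DESeq2 1.42.0 was an alternative, with others for normalization, filters, covariates and left-out libraries. Over all groups 15570 genes passed the filter. In counts simulated for the basal GABA-CB1 comparison (15082 genes), 200 genes were given a log2 change. A change of 0.3 was recovered in 54% of the changed genes, one of 0.5 in 73.4% and one of 1 in 96.5%. Of the calls, 1.82%, 4.58% and 9.81% were false. The simulated counts hold no variation shared between genes, and the real comparison called 37 genes, so these shares do not give its power. No 2 libraries agreed within sampling noise (123 pairs within groups, lowest chi-square per degree of freedom 2.88). The labels give each mouse as a separate sample. The text names the 6 genes, *Cnr1* and *Arc* as checks, pathway genes called in a comparison, and the 3 genes most correlated with each member. The values of some genes under this rule are not reported here. The cholinergic, interneuron and other marker values were given for whole lists. The members and lists were chosen with earlier results of these data known.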

Additional observations from a re-analysis of the deposited data

Results flagged for a closer look

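Of 48 combinations of gene and group, 6 held a library that stood apart from its group by Dixon's test, which chance gives for about 1 in 20 groups. *Bdnf* was 43.2 CPM in Glu-CB1-WT basal replicate 3, where the nearest library had 51.5 CPM. It was 44.5 CPM in Glu-CB1-WT open field replicate 5 (nearest 57.2 CPM) and 52.8 CPM in GABA-CB1-KO basal replicate 5 (nearest 41.4 CPM). *Ntf3* was 2.89 CPM in Glu-CB1-WT basal replicate 3 (nearest 5.04 CPM). *Ngfr* was 1.85 CPM in Glu-CB1-WT open field replicate 5 (nearest 1.26 CPM) and 1.85 CPM in GABA-CB1-WT open field replicate 5 (nearest 1.46 CPM). Thus Glu-CB1-WT basal replicate 3 stood apart for 2 genes and so did Glu-CB1-WT open field replicate 5.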

How the results depend on the processing

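The number of the 6 genes called was 0 in each main comparison and changed under few alternatives. *Bdnf* was called (1 gene) in the GABA-CB1 line when both states were fitted together (−0.34, adjusted p = 0.0131) and after the open field with DESeq2 (−0.37, adjusted p = 0.0052). *Ntrk3* was called for the open field in the Glu-CB1 line without the libraries low in *Xkr4* (1 gene, −0.15) and over all libraries with the first principal component as a covariate (1 gene, −0.06, adjusted p = 0.0388). Without the libraries low in *Xkr4*, *Ntf3* (−0.23, adjusted p = 0.0431) and *Ntrk3* (−0.09) were called over all libraries (2 genes). For the open field, the alternatives called 34–502 of all genes in the Glu-CB1 line. Over all libraries they called 484–1784, with the highest count for the first component as a covariate. The fits of both states, the first component and the left-out *Xkr4* and choroid libraries were chosen after seeing the data. *Ntrk3* was called over all libraries (−0.08, adjusted p = 0.0395) without Glu-CB1-WT basal replicate 3. Leaving out 1 library gave 0 to 1 members and 1123–1529 of all genes called over all libraries. It moved the genotype difference of *Bdnf* in the GABA-CB1 line between −0.41 and −0.27 (basal) and between −0.43 and −0.32 (open field), and in the Glu-CB1 line between 0.06 and 0.16 and between −0.14 and −0.04. For the open field in single groups it moved the count of all genes called from 47 to 9–248 (Glu-CB1-KO; lowest without basal KO replicate 6, highest without basal KO replicate 3), from 31 to 6–86 (GABA-CB1-WT; basal WT replicate 3, open field WT replicate 5) and from 14 to 0–269 (GABA-CB1-KO; basal WT replicate 5, open field KO replicate 5).

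Same-numbered libraries did not deviate together (r over 0.1 in 4 of 21 pairs). With the replicate block 0 members were called in all 16 comparisons, and *Bdnf* in the GABA-CB1 line was at −0.32 (adjusted p = 0.595) and −0.37 (adjusted p = 0.598). The count of all genes called moved more: DESeq2 called 141 in place of 3 genes for genotype in the GABA-CB1 line after the open field, 102 in place of 37 in the basal state and 124 in place of 41 in the Glu-CB1 line after the open field. Ranges of the last number of each sample title were set here, and the labels do not say what that number means. As a covariate, the range gave 7 in place of 37 in the basal GABA-CB1 line. There a middle range held KO mice only, so that range and genotype were partly confounded, as they were in the basal Glu-CB1 line. The block gave 3 in place of 41 in the Glu-CB1 line after the open field. For the open field the block called 34 in place of 276 and 4 in place of 148 in the Glu-CB1 and GABA-CB1 lines and 484 in place of 1344 over all libraries. The cause was not tested. *Ngfr* had the fewest reads (28–71 per library).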
